A study of Mus musculus with 12 samples.

Results

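Urea cycle and ammonia handling was described in fetal mouse liver by 10 genes, chosen by name as the rows of the deposited table whose symbols were Cps1, Otc, Ass1, Asl, Arg1, Nags, Slc25a15, Glul, Gls2 and Glud1. All 10 were found among the 30743 rows, 1 row each. The livers came from male C57BL/6J fetuses at 15 ± 0.5 dpc. There were 6 from dams on control chow (13.5 kcal% fat, the Control group) and 6 from dams on a high-fat diet (HFD, 60 kcal% fat, the High-fat group), both fed for 12 to 14 weeks, and each liver was sequenced as a polyA-selected library. The level used here was the authors' average log2 CPM (log2 of read counts scaled to library size, as CPM), 1 value per gene over all libraries of both diets, so it carries no SD and no difference between the diets is given. Values of single livers were not analysed here. Whole liver is a mixture of cells, in which a smaller number of expressing cells and less RNA in each of them cannot be told apart.

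The urea cycle turns toxic ammonia into urea. Its first steps run in the mitochondria of hepatocytes and the later steps in their cytosol, so that ornithine and citrulline must be carried across the inner mitochondrial membrane. In adult liver the cycle sits mainly in hepatocytes near the portal vein, together with glutaminase, which releases ammonia from glutamine. A narrow ring of hepatocytes around the central vein instead holds glutamine synthetase, which captures the ammonia that escapes. Hepatocytes take on these tasks while the fetal liver is still a blood-forming organ.

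The promoter windows below show the start regions of 4 of the genes. Glud1 and Glul had the highest levels, Otc had the highest level of the cycle enzymes, and Nags had the lowest level among genes with more than a handful of reads. Each is the run of 250 bases just before a transcription start in RefSeq (GRCm38.p6), written 5′ to 3′ on the gene's own strand. Capitals mark 4 short motifs, searched on both strands of each window. The TATA box was searched as TATAAA, where the transcription machinery can be positioned. The CCAAT box was searched by the letters of its name, and the GC box, bound by Sp1 and its relatives, as GGGCGG. The core of many nuclear receptor sites was searched as AGGTCA.
Glud1 (chr14:34310477-34310726, plus strand): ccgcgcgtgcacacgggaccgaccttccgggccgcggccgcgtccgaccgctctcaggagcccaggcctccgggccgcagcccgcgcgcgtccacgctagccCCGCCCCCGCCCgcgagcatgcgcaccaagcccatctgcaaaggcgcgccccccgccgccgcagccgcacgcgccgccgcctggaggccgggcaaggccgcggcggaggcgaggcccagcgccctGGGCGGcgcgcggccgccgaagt
Glul (chr1:153899679-153899928, plus strand): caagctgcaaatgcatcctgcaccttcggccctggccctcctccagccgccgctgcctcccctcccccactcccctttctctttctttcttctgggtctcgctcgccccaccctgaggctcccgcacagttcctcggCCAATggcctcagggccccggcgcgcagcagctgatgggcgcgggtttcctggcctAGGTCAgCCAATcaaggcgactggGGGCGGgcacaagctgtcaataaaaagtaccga
Otc (chrX:10252055-10252304, plus strand): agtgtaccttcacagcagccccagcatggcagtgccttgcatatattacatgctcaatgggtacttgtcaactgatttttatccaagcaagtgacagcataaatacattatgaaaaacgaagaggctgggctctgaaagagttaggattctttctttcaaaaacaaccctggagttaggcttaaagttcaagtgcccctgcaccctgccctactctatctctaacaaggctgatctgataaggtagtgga
Nags (chr11:102145263-102145512, plus strand): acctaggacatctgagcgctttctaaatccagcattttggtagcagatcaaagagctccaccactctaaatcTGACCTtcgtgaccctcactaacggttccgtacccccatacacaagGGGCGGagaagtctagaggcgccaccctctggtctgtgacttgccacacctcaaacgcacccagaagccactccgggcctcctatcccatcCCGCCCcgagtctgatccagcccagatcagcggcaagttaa
The Glud1 window was 82.0% G or C with 46 CpG dinucleotides and held 3 GC boxes, 2 of them side by side. The Glul window was 64.8% G or C with 15 CpG and held 2 CCAAT boxes, 1 GC box and 1 AGGTCA. In the Nags window there were 2 GC boxes and 1 AGGTCA, with 55.6% G or C and 11 CpG. The Otc window was the poorest in G and C of the 4, at 43.6% with 1 CpG, and held none of the 4 motifs. The median of all 32851 windows of this length was 52.4% G or C with 6 CpG. A TATA box stood in 12.4% of those windows, a CCAAT box in 33.8%, a GC box in 32.7% and AGGTCA in 14.0%. These matches describe the letters of the windows. RefSeq windows were found for 6 of the 10 genes (Ass1 and Slc25a15 were the others).

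Of the 10 genes, 9 lay above 1 CPM, against 10171 of all 30743 rows, and 11091 rows shared the lowest level, that of genes without reads. Glud1 and Glul stood far above the cycle enzymes, and Gls2 was the exception at the bottom, barely above a gene without reads. Ranked by CPM among the 19652 rows with reads, 6 genes fell in the top 10% (rank 1965 or better). Together the 10 genes summed to 3103 CPM, of which Glud1 gave 64.4%, and Glud1 with Glul 80.1%. Since long transcripts yield more reads, levels of different genes were compared as CPM per kilobase of merged exons. On that scale the median of the 10 genes was 23.4, beside 0.469 over the 15856 rows with reads and an annotated length.

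**Figure D1:**
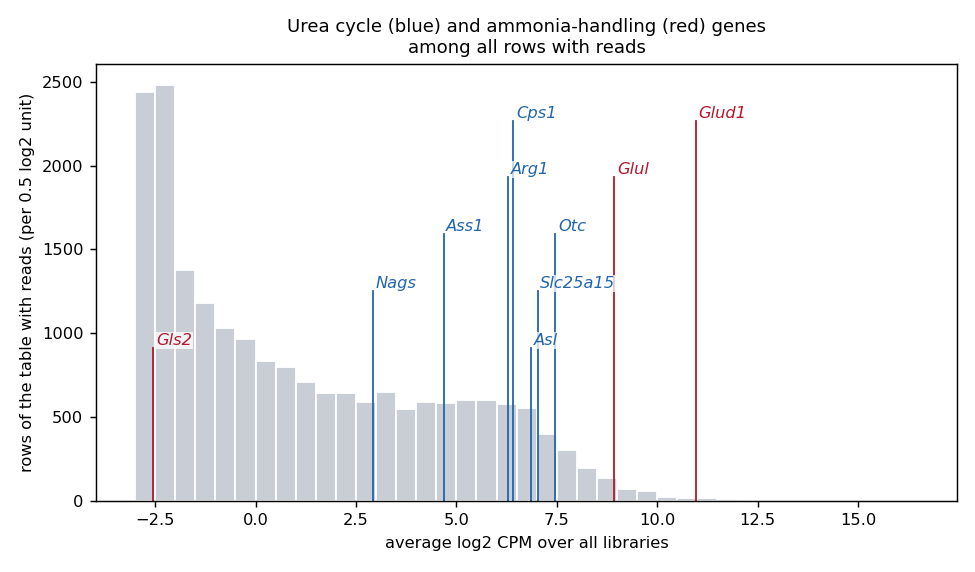
Histogram of the average log2 CPM of all rows with reads (x axis, log2 units; y axis, rows in each bin of 0.5), with the cycle genes as blue lines and the ammonia-handling genes as red lines (line height has no meaning). Glud1 stands at 10.96 and Glul at 8.93 on the right, most cycle genes lie between 4.68 and 7.46, and Gls2 sits at -2.55 among genes with almost no reads.

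One property of the table bears on every level in it. Genes used by all cells were listed at very low levels, such as Gapdh at 5.20 CPM, the proteasome gene Psmd2 at 0.267 CPM and Ppia at 0.165 CPM, while Actb stood at 2581 CPM and Hprt at 298 CPM (these 5 were named after their values were seen). Among protein-coding genes with 1 curated transcript in RefSeq, 29.2% of 10974 lay above 16 CPM, against 13.2% of 7386 genes with several. The gap was smaller above 1 CPM (48.5% against 40.8%), and genes without reads were more frequent among those with 1 curated transcript (24.8%) than among those with several (18.3%). Ppia has 1 curated transcript, so a low listing was not limited to genes with several. How the authors assigned reads of shared exons is not given in the sources used here, and the part of transcript number in these levels was not tested. Of the 10 genes, 8 have 1 curated transcript, Slc25a15 has 2 and Gls2 has 3. Among genes with 1 curated transcript and reads, 3 of these 8 fell in the top 10%: Glud1 in the top 0.388%, Glul in the top 2.18% and Otc in the top 8.03%. Asl lay in the top 12.5%, Cps1 in the top 16.8%, Arg1 in the top 18.2%, Ass1 in the top 33.6% and Nags in the top 46.8%.

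**Figure D2:**
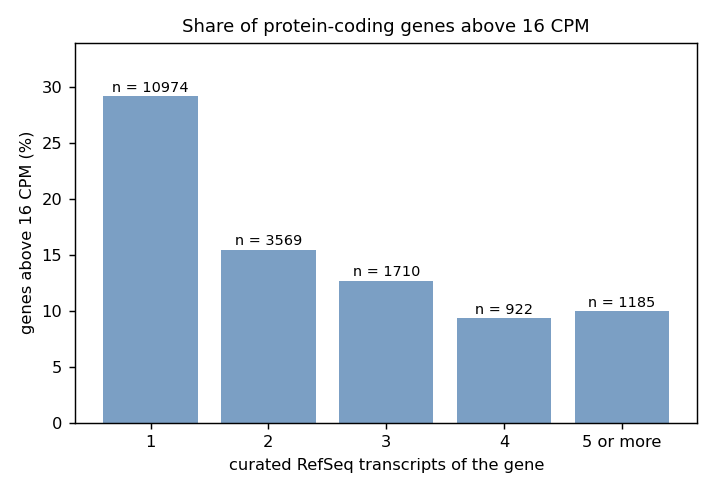
Percentage of protein-coding genes of the table above 16 CPM (y axis, bars from 0) by the number of curated RefSeq transcripts of the gene (x axis), with the number of genes over each bar. The bar for 1 transcript reaches 29.2%, and those for more transcripts lie between 9.33% and 15.5%.

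Entry into the cycle depends on Nags and Cps1. Nags makes N-acetylglutamate, the compound without which carbamoyl phosphate synthetase stays inactive. It lies on the plus strand of chromosome 11 of mm10 from 102145513 to 102149477 and had an average log2 CPM of 2.93, or 7.61 CPM, about 97.9 reads per library. It was the lowest of the 9 genes above 1 CPM. Of its exon bases, 15.6% are shared with the gene Gm11586, counted on either strand. The library kit does not mark strand, so reads of the pair cannot be told apart there.

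Cps1, which joins ammonia and bicarbonate into carbamoyl phosphate, lies on the plus strand of chromosome 1 from 67123026 to 67231259. Its average log2 CPM was 6.42 (85.9 CPM, about 1126 reads per library), at rank 1879 of the rows with reads. Its coding transcript of 38 exons is the longest of the set, and per kilobase its level was 15.5, which placed it 7th of 10. That was 5.76 times the level of Nags. Cad, the cytosolic enzyme that makes carbamoyl phosphate for pyrimidines, had 6.06 CPM, and the Cps1 level per kilobase was 20.9 times that of Cad. Cad has 3 curated transcripts and Cps1 has 1, so the pair differs in the property described above.

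Otc, the mitochondrial ornithine transcarbamylase that makes citrulline, lies on the plus strand of chromosome X from 10252305 to 10321024. With an average log2 CPM of 7.46 (176 CPM, about 2306 reads per library) it was the highest of the cycle enzymes, also per kilobase (41.4). Slc25a15, the carrier that brings ornithine into mitochondria and takes citrulline out, lies on the minus strand of chromosome 8 from 22375551 to 22398597. It stood at 7.02 (129 CPM), or 23.0 CPM per kilobase. The related carrier Slc25a2 was listed at 0.538 CPM from about 61 reads in all libraries together, and the Slc25a15 level per kilobase was 58.5 times the Slc25a2 level. In reads per kilobase, without the constant that the authors' tool adds, the ratio was 81.5 (exact binomial 95% interval 63.2 to 106, counting error only), and with coding length it was 212. Slc25a15 has 2 curated transcripts and Slc25a2 has 1.

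In the cytosol, Ass1 joins citrulline to aspartate and Asl splits the product into arginine and fumarate. Ass1 lies on the plus strand of chromosome 2 from 31470207 to 31520672 and had an average log2 CPM of 4.68 (25.7 CPM, about 336 reads per library). Per kilobase its level was 10.7, the lowest of the 5 enzymes from Cps1 to Arg1. Asl lies on the minus strand of chromosome 5 from 130011258 to 130029247 and stood at 6.85 (115 CPM, about 1514 reads per library), or 23.9 per kilobase. The Asl level per kilobase was 2.24 times the Ass1 level. Otc, the mitochondrial step, was 1.73 times Asl on the same scale, a ratio that fell to 1.23 when the longest transcript was used as the length.

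Arg1, liver arginase, releases urea and returns ornithine to the cycle. It lies on the minus strand of chromosome 10 from 24915221 to 24927484 and had an average log2 CPM of 6.28 (77.8 CPM, about 1020 reads per library). With the shortest merged exons of the set, it ranked 4th of 10 per kilobase at 34.9, and Otc was 1.19 times as high. The mitochondrial arginase Arg2 was listed at 0.450 CPM from about 47 reads in all libraries together, and both arginase genes have 1 curated transcript. The Arg1 level per kilobase was 111 times the Arg2 level. Expressed as reads per kilobase, which leaves out the constant that the authors' tool adds to each count, the ratio was 167 (exact binomial 95% interval 125 to 227, counting error only). Arginase 1 is also known from macrophages, whose markers are given with the other cell types.

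Across the 5 cycle enzymes from Cps1 to Arg1, the highest level per kilobase (Otc) was 3.89 times the lowest (Ass1). With coding length this span was 8.67-fold. The places of Glud1, Glul, Otc, Asl, Nags and Gls2 in the order were the same with merged exons, the longest transcript and the coding length. Between them the order was less settled: with coding length Slc25a15 moved from 6th to 4th, Arg1 from 4th to 6th, and Cps1 and Ass1 changed places. As the spread between livers is not known from this table, whether neighbours in the order differ beyond it was not tested.

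**Figure D3:**
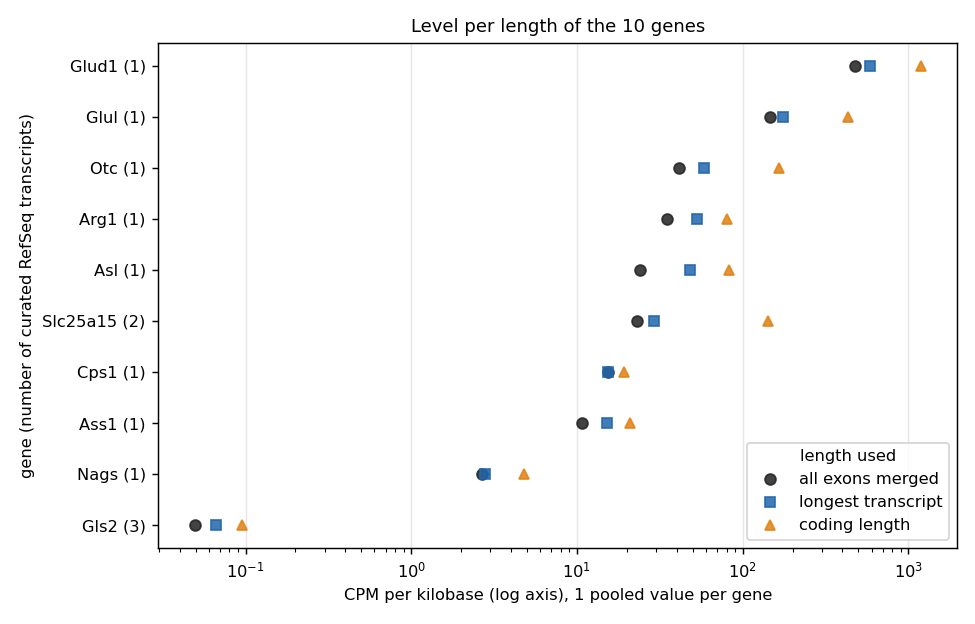
CPM per kilobase (x axis, log scale) of the 10 genes (y axis, number of curated RefSeq transcripts in brackets), with merged exons (circles), the longest transcript (squares) or the coding length (triangles) as the length. Each symbol is 1 pooled value. Glud1, Glul and Otc lead with all 3 lengths, and Gls2 lies lowest at 0.0493 with merged exons. Most of that Gls2 value is the level of genes without reads, and 0.00544 is left when it is subtracted.

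Glud1 encodes mitochondrial glutamate dehydrogenase, which can release ammonia from glutamate or bind it. It lies on the plus strand of chromosome 14 from 34310727 to 34345265. At an average log2 CPM of 10.96 (1998 CPM, about 26238 reads per library) it ranked 45th of all rows with reads, and per kilobase it stood at 475. That was 3.24 times the level of Glul, the next of the set. For scale, the level of Alb, the main plasma protein gene, was 57.0 times that of Glud1 per kilobase.

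Glul, glutamine synthetase, lies on the plus strand of chromosome 1 from 153899944 to 153909723. It had an average log2 CPM of 8.93 (487 CPM, about 6386 reads per library), at rank 231. Per kilobase (146) it was 3.53 times Otc. Of 7 other genes that mark the central vein region in adults, 4 lay above 1 CPM, with Rnf43 at 36.9 CPM, Cyp7a1 at 5.67 CPM, Lgr5 at 5.17 CPM and Axin2 at 2.77 CPM. The others were Cyp1a2 at 0.494 CPM, Cyp2e1 at 0.356 CPM and Tbx3 at 0.273 CPM. Over all protein-coding genes the share above 1 CPM was 48.5% with 1 curated transcript and 40.8% with several. Per kilobase all 7 were listed below Glul, as were most rows, since Glul ranked 261 of the 15856 rows with reads and an annotated length. Of its exon bases, 3.49% overlap Teddm2 or Mir8114.

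Gls2, the liver-type glutaminase that frees ammonia from glutamine, lies on the plus strand of chromosome 10 from 128194457 to 128210004. Its average log2 CPM of -2.55 corresponded to about 3 reads in all libraries together (exact Poisson 95% interval 0.619 to 8.77 reads, counting error only), where genes without reads are listed at -2.71. The Glul level per kilobase was 2970 times the Gls2 level. In reads per kilobase, without the constant that the authors' tool adds, the ratio was 26893 (exact binomial 95% interval 9138 to 129500, counting error only). Gls2 has 3 curated transcripts and Glul has 1, and the part of transcript number in the low listing of Gls2 was not tested. Spryd4 overlaps 2.79% of the Gls2 exon bases.

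Genes that feed or drain the cycle were taken from lists drawn up for this purpose. The counts above 1 CPM in these lists stand beside 48.5% of all protein-coding genes with 1 curated transcript and 40.8% of those with several. Of 14 neighbours of glutamine, glutamate and ornithine, 13 were found and 9 lay above 1 CPM. Asns, which makes asparagine from aspartate and glutamine, led them at 276 CPM per kilobase, followed by Odc1, the first enzyme of polyamine synthesis, at 266. Oat, which turns ornithine into glutamate semialdehyde, stood at 84.3 per kilobase, 2.03 times Otc. The lowest was Aldh18a1, which begins the making of ornithine and proline from glutamate, at 0.0699 per kilobase from about 21 reads. Pycr3 could not be matched to a row.

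Aspartate and fumarate tie the cycle to the citrate cycle. The list drawn up for this link also held the pyrimidine synthesis genes Cad, Umps and Dhodh, and 5 of its 6 genes lay above 1 CPM. Mdh2, the mitochondrial malate dehydrogenase, was highest at 155 CPM per kilobase and Fh1, fumarase, stood at 78.4. Dhodh, a mitochondrial enzyme of pyrimidine synthesis, was lowest at 0.0984. Of 8 genes for mitochondrial carriers and bicarbonate supply, 5 lay above 1 CPM. Car2, a cytosolic carbonic anhydrase that red cells also hold, led by far at 1940 per kilobase, and Car5b was the lowest with reads at 0.152. The mitochondrial carbonic anhydrase Car5a, which supplies bicarbonate to Cps1, had 3.32 CPM. Slc25a12 (aralar), an aspartate/glutamate carrier, had 94.8 CPM, whereas Slc25a13 (citrin), its counterpart known from liver, was listed without reads. Slc25a13 has 2 curated transcripts and Slc25a12 has 1.

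Among 12 transporters of the plasma membrane, 9 lay above 1 CPM. The highest per kilobase was Rhag at 363, an ammonia channel of the red cell membrane, and the lowest was the glutamate transporter Slc1a2 at 0.0608. The glutamine transporter Slc1a5 stood at 147 per kilobase, close to Glul at 146. Of the cationic amino acid transporters, Slc7a1 had 181 CPM and Slc7a2 had 2.99 CPM. Rhbg, an ammonia channel of hepatocytes around the central vein in adults, had 8.11 CPM.

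Of 11 regulators, 6 lay above 1 CPM and 3 were listed without reads, namely Hnf4a, Ppargc1a and Sirt3, each with 3 curated transcripts. Cebpa, a factor of hepatocyte differentiation, was highest at 68.0 CPM per kilobase, and Sirt5, which acts on the Cps1 protein, was the lowest with reads at 0.0291, from about 4 reads. Over all lists together, 48 of 67 genes with 1 curated transcript lay above 1 CPM and 1 was without reads. Of 31 genes with several, 18 lay above 1 CPM and 7 were without reads. Over all protein-coding genes, 48.5% of those with 1 curated transcript and 40.8% of those with several lay above 1 CPM, and 24.8% and 18.3% were without reads, so genes without reads were the more frequent among those with several in the lists and among those with 1 in the whole table.

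Per kilobase, the 7 genes of the region around the central vein ranged from Rnf43 at 5.63 down to Tbx3 at 0.0412. The region near the portal vein had 5 of 7 above 1 CPM, led by Cdh1 (E-cadherin) at 45.2 per kilobase. Pck1, the enzyme that commits carbon to gluconeogenesis, was the lowest there at 0.0981, and G6pc had 0.341 CPM. The median level per kilobase was 0.503 for the first list and 0.716 for the second, beside 0.469 over all rows with reads and a length, and 9 of the 10 genes, Gls2 excepted, lay above both medians.

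**Figure D4:**
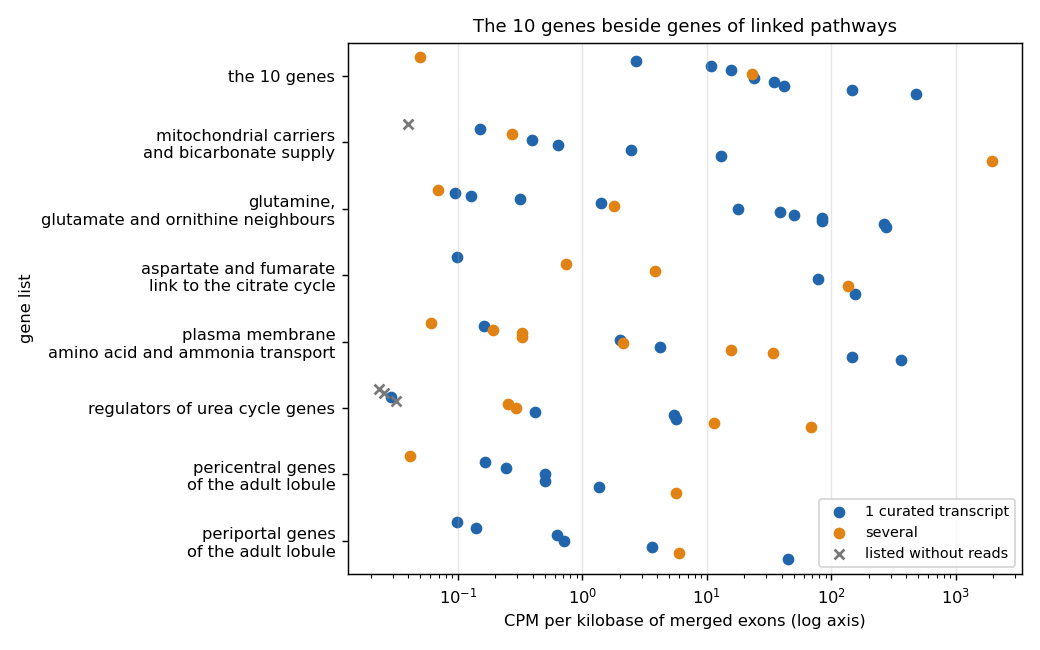
CPM per kilobase of merged exons (x axis, log scale) of the 10 genes and of 7 lists of linked genes (y axis, 1 symbol per gene, spread vertically by rank). Blue marks genes with 1 curated RefSeq transcript, orange those with several, and grey crosses those listed without reads, such as Slc25a13 and Hnf4a. The 10 genes lie mostly between 2.68 and 475.

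Markers of the cell types that whole liver or neighbouring tissue could contribute were read as pooled levels, under the same limit on listed levels. Of all protein-coding genes, 48.5% of those with 1 curated transcript and 40.8% of those with several lay above 1 CPM. A marker count near these shares does not tell whether a cell type was present. The 5 hepatocyte markers of the list all lay above 1 CPM, from Trf at 86.4 to Alb at 27034 CPM per kilobase. They summed to 125812 CPM. Hnf4a, also planned as a hepatocyte marker but given above with the regulators, was listed without reads (3 curated transcripts). Of 5 erythroid markers found, 4 lay above 1 CPM, with Slc4a1 at 2461 per kilobase, but Alas2, the heme synthesis enzyme of red cells, at 0.293 (2 curated transcripts). Hba-a1 could not be matched to a row. Macrophage markers lay above 1 CPM in 4 of 6, led by Cd5l at 189 per kilobase, with Csf1r at 0.119 and Adgre1 listed without reads, and their sum was 679 CPM. The share of Arg1 reads that came from macrophages was not tested.

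Small intestine also expresses Cps1 and Otc. Of its 5 markers 2 lay above 1 CPM, no more than the share over all genes with 1 curated transcript (48.5%). These were Fabp2 at 15.4 CPM and Vil1 at 4.04 CPM, while Cdx1 was lowest per kilobase at 0.191, and the list summed to 20.9 CPM. For exocrine pancreas 2 of 5 lay above 1 CPM, with Cela1 at 5.94 per kilobase, Pnlip at 0.0751 from about 2 reads and Amy2a5 without reads. Endothelial markers lay above 1 CPM in 3 of 4, from Lyve1 at 51.7 per kilobase to Stab2 at 0.256, with Pecam1 without reads. The same held for 3 of 4 stellate cell markers, from Des at 6.36 to Reln at 2.63 per kilobase, with Pdgfrb without reads. The part of these cell types in the levels of the 10 genes was not tested.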

How the data were processed

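RNA of 12 whole livers, 6 Control and 6 High-fat, was sequenced after polyA selection with a kit that does not mark strand. Grouping followed the diet label. The authors checked reads with fastqc, ran Subread 1.3.6-p1 against the mm10 genome, took annotation from biomaRt and used edgeR. Their processing notes also name cutadapt 1.2.1. The read counter and the edgeR version are not given in the sources used here. The deposited table holds the authors' average log2 CPM per gene (2 columns, which differed in 0 rows) and 8 columns of their own diet comparison (fold changes and p-values), which were not used. As 1 pooled value per gene was left, no test was made, and the planned diet test on counts was not run.

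The level of rows without reads gives the mean library if the prior count that the authors' tool adds is known. Steps of 1 read above it (1267 rows) implied a prior count from 1.97 to 2.03. With 2, the mean effective library was 13129748 reads, and read totals over the 12 libraries followed from each CPM. Single library depths are not known. On data simulated with the same prior count and an assumed spread between libraries (4000 genes), read totals were recovered with a median error of 0.681%. This median covers genes of all levels, so it does not give the error of totals as small as those of Gls2, Arg2 and Slc25a2. Intervals (95%) are exact Poisson or binomial limits on these recovered totals and cover counting error only. They leave out the spread between livers. PCR copies were not removed by molecular identifiers, so the counting error itself may be larger.

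For 21025 rows matched by symbol, GENCODE M21 gave gene positions and lengths (GRCm38, which is mm10). Numbers of curated transcripts (NM or NR accessions) and promoter sequences came from RefSeq on GRCm38.p6, a later annotation than the authors could have used, for 18360 protein-coding rows. List genes absent under their symbol were matched by RefSeq synonym. Every one of the 10 genes is named. Also named are the partner of each of 5 ratios (another is not reported here), and in each list the highest and lowest gene with reads and those without reads, and further genes were named after their values were seen. The members and lists were chosen with earlier results of these data known. Alternatives were the length used, subtraction of the level of genes without reads, and the genes ranked. Scripts ran in Python 3.11.15 (pandas 2.3.3, numpy 2.4.6), with intervals from scipy 1.17.1 and plots from matplotlib 3.10.9.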

Additional observations from a re-analysis of the deposited data

How the results depend on the processing

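With the longest transcript as the length, the median level of the 10 genes was 38.5 CPM per kilobase (23.4 with merged exons), Cps1 was 18.2 times Cad, Otc 1.23 times Asl and Arg1 167 times Arg2. With coding length these were 81.6 for the median, 2.00 for Otc to Asl, 189.5 for Arg1 to Arg2 and 212 for Slc25a15 to Slc25a2. Subtracting the level of genes without reads gave 167 for Arg1 to Arg2, 81.5 for Slc25a15 to Slc25a2 and 26893 (2970 before) for Glul to Gls2. These changes follow from the lengths and the constant themselves. Among rows above 1 CPM 3 of the 10 genes fell in the top 10%, and 4 did so when ranked per kilobase. In a comparison added after seeing the data, genes with 1 curated transcript, 3 did so and the median of the 8 such genes was 29.4, beside 1.37 for the 8234 such genes with reads and a length. Of 30 levels of single genes under these alternatives, 17 moved by more than their counting interval. No ratio crossed 1. The few reads behind Gls2, Arg2 and Slc25a2 limit their ratios. Leaving out a liver and any other setting of a diet comparison need values of single livers and were not run. No paired analysis was possible because the table gives no value for single livers.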
